A study of Mus musculus with 6 samples.

Results

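A set of 10 markers by which mammary stem and progenitor cells are isolated or traced was examined in sorted PyMT mammary tumor cells: Procr, Lgr4, Lgr5, Lgr6, Tspan8, Aldh1a1, Aldh1a3, Kit, Prom1 and Cd44. They were chosen by name, as the listed markers present in the deposited expression table, and all 10 of them were found among its 22310 genes. Most encode cell surface proteins, while Aldh1a1 and Aldh1a3 encode enzymes inside the cell whose activity is stained for sorting. The tumors arose in MMTV-PyMT mice on the FVB/N background, in which a mammary-active viral promoter drives the polyoma middle T oncoprotein and tumors form without grafting. The mice were killed at about 12 to 18 weeks of age, and the genotype of all samples is otherwise labelled WT. Primary tumor cells were grown overnight in medium with serum, insulin and EGF and were then sorted by flow cytometry. Cells negative for lineage markers and positive for CD24 were collected as metastasis-initiating cells (MICs), when they carried CD90, and as non-MICs, when they did not. RNA was sequenced from 3 MIC and 3 non-MIC libraries, numbered 1 to 3 in both populations. The comparison asked which genes separate the cells that found metastases from the rest of the tumor epithelium, and here it was read for markers of stem and progenitor state.

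The mammary epithelium has an inner luminal layer, which holds hormone-sensing cells and milk-lineage progenitors, and an outer basal layer of contractile cells in which transplantable stem cells were first found. The 10 markers do not label the same cells. Procr, Lgr5, Lgr6 and Tspan8 have each been used for basal stem cell subsets, Kit and Aldh1a3 for luminal progenitors, Prom1 for hormone-sensing luminal cells, and Cd44 and aldehyde dehydrogenase activity for tumor-initiating cells in breast cancer.

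Values below are scaled counts: the reads of a gene scaled so that each library sums to about 35000000. The libraries held between 31467281 and 51759769 reads, which sets the counting error, and for rare genes the reads themselves are given. The labels do not say whether a number marks a mouse, a tumor or a batch, so p-values measure the spread between these libraries only. In bulk RNA, fewer cells of a type and less RNA per cell cannot be told apart. Thy1, the gene of CD90, was read 1399, 271 and 1117 times in MICs 1 to 3 and 16, 20 and 18 times in non-MICs, so the labels of all 6 libraries matched the gate. Cd24a, the gene of CD24, did not separate the populations, at 10488, 17447 and 25549 reads in MICs against 13236, 14086 and 26741 in non-MICs. Libraries with the number 2 stood apart in both populations for many of the markers, so values without that pair are also given for Kit, Procr, Lgr4, Lgr6, Tspan8, Prom1 and Cd44.

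The markers spanned more than 4 orders of magnitude in level. Per kilobase of annotated exon, Cd44, the hyaluronan receptor, had a mean of 9248 scaled counts over the 6 libraries, higher than 99.4% of the genes of the table. Procr followed with 1538, and Aldh1a3 with 652. Lgr6 and Lgr4 lay close together, at 297 and 232, and Lgr6 was the higher of the pair in 4 of 6 libraries. Prom1 had 140 per kilobase, Kit 54.9 and Tspan8 37.4. Aldh1a1 had 7.18. Lgr5 was nearly absent, at 0.534 per kilobase and no more than 20 reads in any library. Cd44 exceeded Procr in 6 of 6 libraries and Aldh1a1 exceeded Lgr5 in 6 of 6, while every other neighbouring pair in this order changed places in at least 1 library, so the middle of the order is not fixed at this number of samples. Annotated genes on the other strand overlap Lgr5, Tspan8, Aldh1a1, Prom1 and Cd44, and those of them in the table, C730002L08Rik over Aldh1a1 and Gm16401 over Prom1, had at most 3 and 6 reads in a library.

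**Figure D1:**
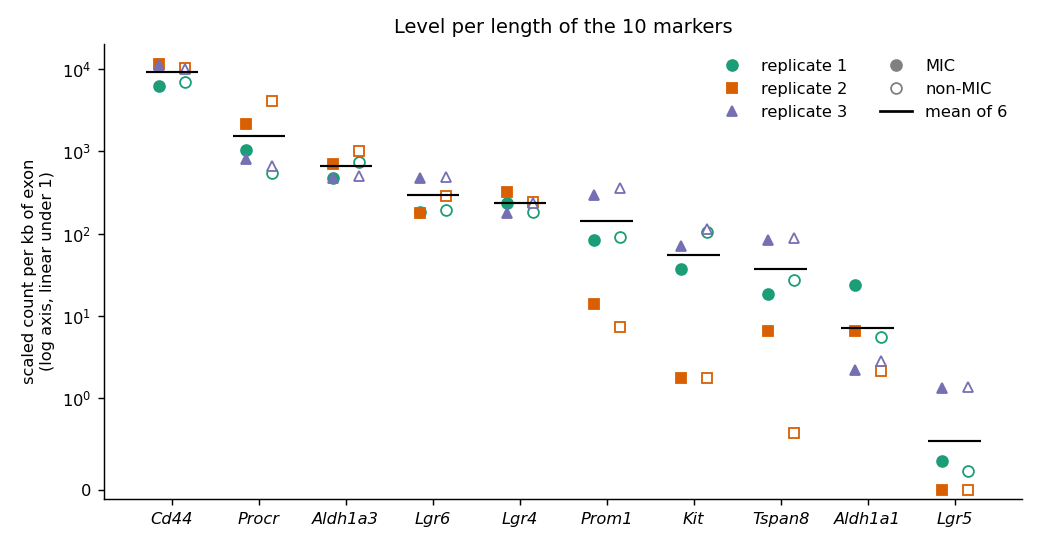
Level of each marker in the 6 libraries, in scaled counts per kilobase of annotated exon on a log axis that is linear under 1, with the mean as a bar. Cd44 is the highest in every library, at a mean of 9248, and Kit, Prom1 and Tspan8 drop far below their means in the libraries numbered 2 (squares).

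Most of the variation in these markers lay between the replicate numbers and not between MICs and non-MICs. On the log2(value + 1) scale, the replicate number took between 53.0% (Lgr4) and 99.4% (Lgr5) of a marker's sum of squares, with a median of 88.6%, beside a median of 66.4% over all genes. The population took a median of 2.14%, beside 9.02% over all genes, and its largest shares were 25.5% for Aldh1a3 and 21.3% for Aldh1a1. Of the 8 markers with a mean of 50 reads or more, 4 differed between numbers by more than 2 on the log2 scale, as did 10.3% of all genes with that many reads. These were Kit, with a 48.0-fold range between the means of the numbers, Prom1 with 31.1-fold, Tspan8 with 29.4-fold and Procr with 4.05-fold.

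**Figure D2:**
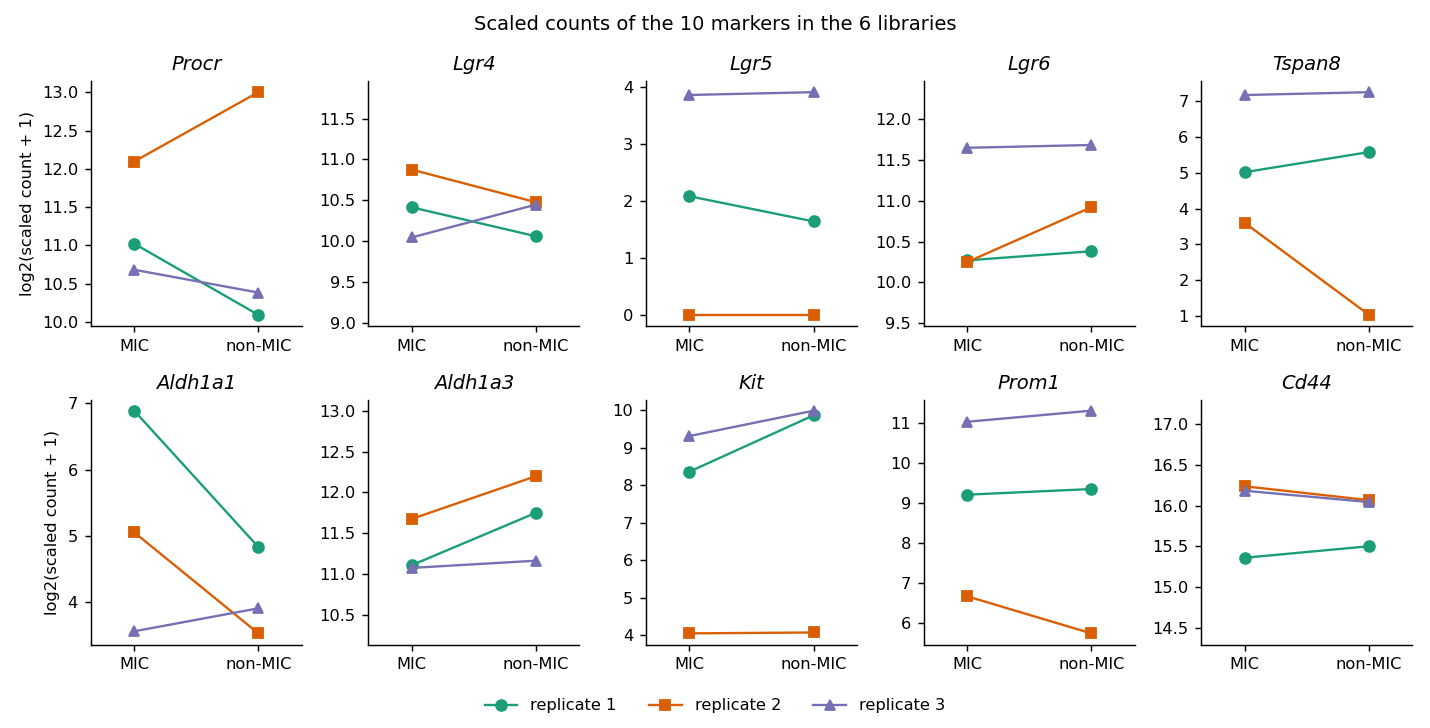
Scaled count of each marker in each library, as log2(scaled count + 1), with a line joining the MIC and non-MIC libraries of one replicate number and each panel on its own scale. The lines of different numbers lie far apart for Kit, Prom1, Tspan8 and Lgr5, with number 2 lowest, while Procr has number 2 highest.

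**Figure D3:**
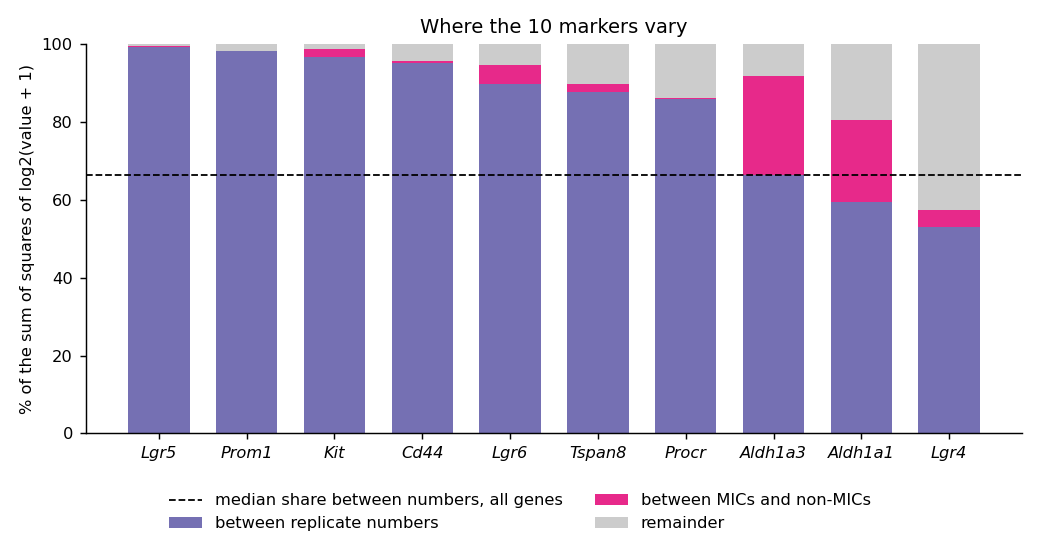
Share of each marker's sum of squares of log2(scaled count + 1) that lies between the 3 replicate numbers, between the 2 populations and in the remainder. The share between numbers reaches 99.4% for Lgr5 and falls to 53.0% for Lgr4, and the dashed line marks the median of all genes, 66.4%.

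Kit, Prom1, Tspan8 and Lgr5 were each lowest in number 2, in MICs and non-MICs alike, and Procr was highest there. Over the 6 libraries the log2 values of Tspan8 and Prom1 correlated at 0.973, those of Kit and Prom1 at 0.936 and those of Procr and Kit at -0.958. These are descriptions of 6 libraries that share their pairs, and each of these genes sets number 2 apart from the others. The luminal progenitor gene Elf5, a transcription factor of the milk lineage, was also nearly absent in number 2, with 13 and 27 reads against 403 or more in the others. Lysozyme (Lyz2), a macrophage gene, was highest there, with 1470 reads in the MIC and 789 in the non-MIC library against at most 210 elsewhere, although the sort removed lineage-positive cells. Its part in the levels of the markers was not tested.

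Between MICs and non-MICs, the markers differed little beside this variation. limma, without the replicate number as a block, called 0 of the 10 at an adjusted p under 0.05 and 0 at an unadjusted p under 0.05, and it called 0% of all 22310 genes, of which 322 had an unadjusted p under 0.05. With the block, limma again called 0 of the 10, where 0.13% of all genes were called, and DESeq2 with the block called 0, with no adjusted p for Lgr5, where 0.596% were. edgeR's quasi-likelihood test with the block, on the recovered reads, called 1 of the 10, where 1.41% of all genes were called. That marker was Kit, lower in MICs, a direction in which 0.372% of all genes were called. In the other direction, 232 of the 22310 genes were called higher in MICs. Unadjusted p-values fell under 0.05 for 2 markers in limma with the block, where they did for 11.2% of all genes, and for 3 in edgeR with the block, where they did for 11.7%.

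No marker was higher in MICs in all 3 pairs, where 12.5% of all genes were. Lgr6, Aldh1a3 and Kit were lower in MICs in all 3 pairs, which makes 3 of 10 beside 18.8% of all genes and 27.4% of those with a mean of 50 reads or more. Pair 2 of Kit and pairs 1 and 3 of Lgr6 lay within counting error, so their signs there are not fixed. The values of the populations overlapped for each of the 10, while those of 6.24% of all genes did not. An exact two-sided permutation test of the 3 against 3 values, which cannot go below 0.1, gave p-values between 0.2 (Aldh1a3) and 1. The median difference of the 10 was 0.11 on the log2 scale, beside -0.04 over all genes.

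**Figure D4:**
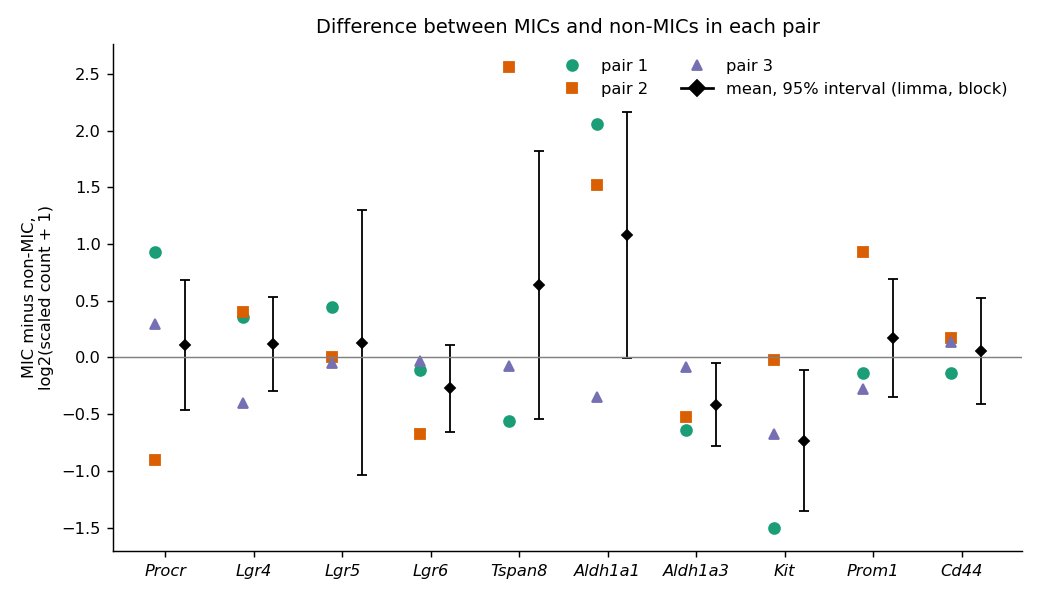
Difference between the MIC and the non-MIC library of each pair, in log2(scaled count + 1), with the mean and its 95% interval from limma with the replicate block. The intervals of Kit (-1.35 to -0.11) and Aldh1a3 (-0.78 to -0.05) lie below 0 before adjustment for the number of genes, and the other 8 reach or cross it.

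Kit (chr5:75574916-75656722, plus strand, as all positions on GRCm38) encodes the receptor for stem cell factor and marks luminal progenitors and melanocyte, mast and blood stem cells. Its scaled counts were 328, 15.6 and 634 in MICs 1 to 3 and 930, 15.8 and 1013 in non-MICs 1 to 3. In pairs 1 and 3 the MIC library was the lower, while pair 2 had only 14 and 15 reads and no difference beyond counting error, so that the populations overlapped. Kit was 0.352-fold in pair 1 (95% counting interval 0.308 to 0.402), 0.983-fold in pair 2 (0.439 to 2.18) and 0.626-fold in pair 3 (0.576 to 0.680), MIC over non-MIC.

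The limma difference of Kit was -0.73 ± 1.86 (SE, n = 3 and 3) on the log2 scale without the block, with an adjusted p of 1, and ± 0.29 with it, with an adjusted p of 0.422. edgeR with the block gave -0.89 and an adjusted p of 0.0209, and DESeq2 with the block gave -0.84 and 0.164. The edgeR call did not hold without either pair in which Kit was well read. Without pair 1 the value was -0.48 with an adjusted p of 1, and without pair 3 it was -1.02 with 0.0929. Without pair 2, in which Kit was barely read, it was -1.03 with an adjusted p of 0.00199.

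The sequence just before the start of Kit is shown because Kit is the only one of the 10 called in the full set of libraries. Of the RefSeq promoter window of 250 bases, the 179 that lie in no annotated exon are printed, at chr5:75574737-75574915 on the plus strand of GRCm38.p6, 5′ to 3′. Capitals mark the only match, on either strand, to 6 short motifs that were searched. These were the TATA box as TATAAA, the CAAT box as CCAAT, the GC box core as GGGCGG, the ETS site as CCGGAAG, an E-box as CAGGTG and the shared SOX and TCF core as ACAAAG, none of which overlap. The motif found was the GC box core, which the same window holds in 20.9% of 32851 promoters.
Kit: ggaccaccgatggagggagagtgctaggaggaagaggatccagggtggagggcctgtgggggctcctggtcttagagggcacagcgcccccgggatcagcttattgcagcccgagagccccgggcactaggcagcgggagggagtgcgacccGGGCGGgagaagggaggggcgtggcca
The stretch is 69.3% G and C, beside a median of 51.4% for that window over all promoters. No match says only that the letters are not in this window.

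Of 18 genes of the KIT pathway, its ligand and signalling partners, limma and edgeR with the block called 0. Among them, 1 gene in limma and 3 in edgeR had an unadjusted p under 0.05, beside 11.2% and 11.7% of all genes. The MIC value was lower in all 3 pairs for 12 of the 18, where 18.8% of all genes and 27.4% of those with a mean of 50 reads or more were, with a median difference of -0.27 on the log2 scale. Kitl, the ligand itself, was read between 474 and 1296 times in a library, and its differences were 0.14, 0.43 and 0.21 in pairs 1 to 3. The differences of Stat5b, a transcription factor downstream of the receptor, were -0.66, -0.38 and -0.15, with an adjusted p of 0.400 by edgeR with the block.

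Genes of the luminal progenitor, the cell type for which Kit is the usual surface marker, were lower in MICs in part. Of 15 such genes, edgeR with the block called 4 lower and 0 higher, and limma with the block called 1, Ltf. Over all 22310 genes, edgeR called 83 lower and limma 2. Ltf, which encodes the secreted iron binder lactoferrin, had a scaled count of 2365, 37.8 and 1620 in MICs against 8917, 144 and 2966 in non-MICs. Its log2 difference was -1.51 by edgeR with an adjusted p of 1.69e-09. Elf5 fell by 1.11 on the log2 scale (adjusted p = 0.000449), Wfdc18, a secreted milk-lineage protein, fell by 0.91 (0.00101) and Sox10, a transcription factor of progenitors and of neural crest cells, fell by 0.66 (0.0496), all by edgeR with the block. The other 11 did not pass.

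Basal cell genes went the other way. Of 16, edgeR with the block called 9 higher and 0 lower in MICs, and limma with the block called 7 higher. Over all 22310 genes, edgeR called 232 higher and limma 27. Tagln, an actin-binding protein of contractile cells, rose by 2.67 on the log2 scale, Acta2, smooth muscle actin, by 2.42, Cnn1, calponin, by 2.25 and Myh11, smooth muscle myosin, by 2.58, with adjusted p-values of at most 7.78e-20 by edgeR. Their level also depended on the number. Acta2 had scaled counts of 230574, 3765 and 9839 in MICs against 48582, 724 and 1581 in non-MICs. Krt14, a keratin widely used to label basal cells and named after its values were seen, did not pass, with differences of 0.50, -0.90 and 0.11 in pairs 1 to 3. Contractile genes are also expressed by pericytes and smooth muscle, and the summed scaled count of the pericyte markers moved the same way. It was 13735, 4050 and 3985 in MICs 1 to 3 against 6932, 2872 and 2828 in non-MICs, the MIC library being the higher in every pair. In MIC 1 a single marker gave most of this sum, with 12430 reads, and only 2 markers had a mean of 50 reads or more. Of 7 in the table, 4 were higher in MICs in all 3 pairs, beside 12.5% of all genes. edgeR with the block called 2 higher, beside 232 of all 22310 genes. The part of pericytes in the difference of the basal cell genes was not tested.

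**Figure D5:**
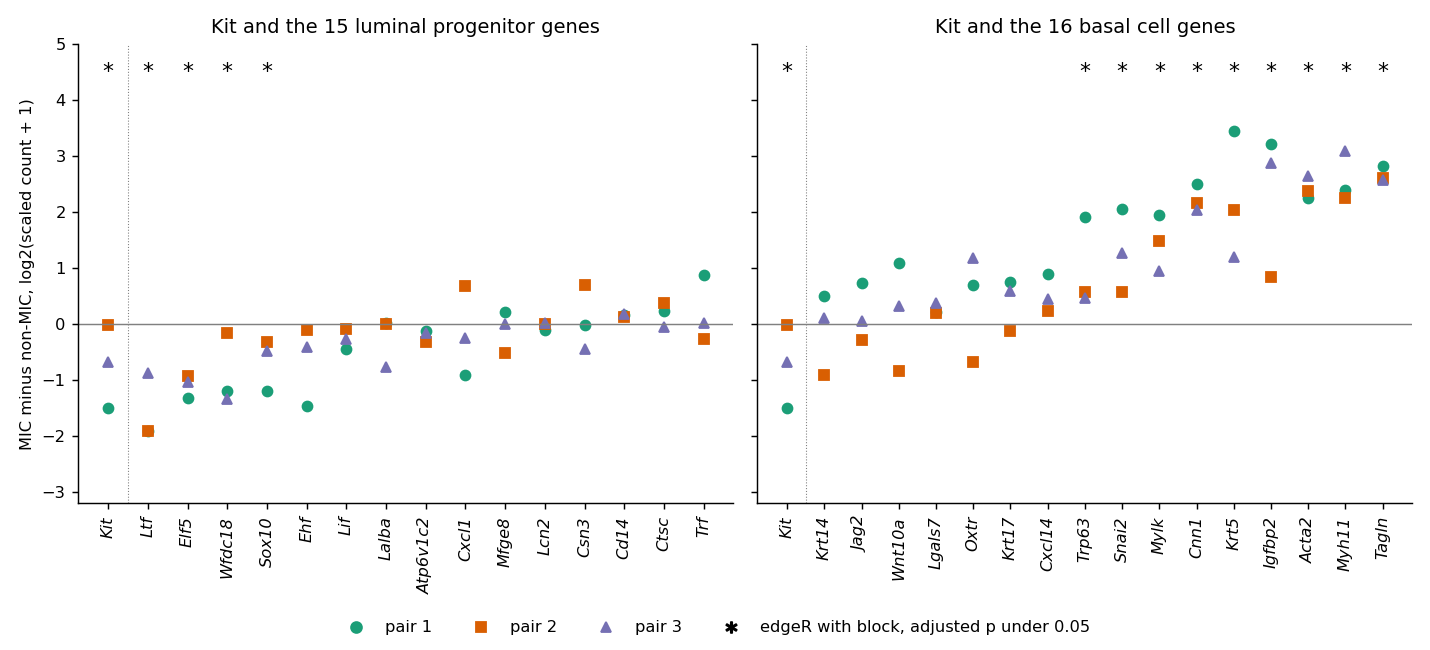
Difference between MICs and non-MICs in each pair, in log2(scaled count + 1), for Kit beside 15 luminal progenitor genes (left) and 16 basal cell genes (right), ordered by mean difference. Stars mark an adjusted p under 0.05 in edgeR with the replicate block, which Kit and 4 luminal progenitor genes reach below 0 and 9 basal genes reach above it.

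Kit also marks cells outside the epithelium, and their markers were read in the same libraries. Of 10 mast cell markers, 6 were not in the table, and the summed scaled count of the others was between 12.9 and 192 in MICs against between 26.5 and 203 in non-MICs. It was highest in number 2 (192 and 203), where Kit was lowest, and Gata2 gave most of its reads. Of 9 neural and glial markers, 7 were in the table, summing to between 1078 and 2133 in MICs against between 1369 and 4539 in non-MICs, and 1 of them, Sox10, was called lower in MICs by edgeR with the block, as were 0.372% of all genes. Sox10 is also among the luminal progenitor genes above. A single marker gave most of the sum in non-MIC 1, with 4158 reads, and 2 of the 7 had a mean of 50 reads or more. The part of mast, neural or glial cells in the level of Kit was not tested.

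Aldh1a1 (chr19:20492715-20643465, plus strand) and Aldh1a3 (chr7:66390890-66427517, minus strand) encode retinaldehyde dehydrogenases, which make retinoic acid and contribute to the enzyme activity by which ALDH-bright cells are sorted. They were expressed at very different levels and their differences pointed in opposite directions, without passing the test in the full set of libraries. Aldh1a3 had scaled counts of 2207, 3268 and 2156 in MICs 1 to 3 and 3443, 4700 and 2292 in non-MICs 1 to 3. The MIC library was the lower in every pair, by little in pair 3, and the populations overlapped in that the MIC library of number 2 exceeded the non-MIC library of number 3. The folds were 0.641 (95% counting interval 0.606 to 0.678), 0.695 (0.663 to 0.729) and 0.941 (0.895 to 0.988).

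For Aldh1a3 the limma difference was -0.42 ± 0.31 (SE, n = 3 and 3) on the log2 scale, ± 0.17 with the block, with an adjusted p of 0.423 with it. edgeR with the block gave an adjusted p of 0.366. The 95% interval with the block, before adjustment, ran from 0.58-fold to 0.965-fold.

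Aldh1a1 was rare, with 109, 29 and 16 reads in MICs 1 to 3 and 26, 10 and 20 in non-MICs 1 to 3. Its MIC reads were the more numerous in pairs 1 and 2 and the fewer in pair 3. The folds were 4.27 (95% counting interval 2.76 to 6.83), 3.05 (1.45 to 7.02) and 0.771 (0.374 to 1.57), so that pairs 1 and 2 differed beyond counting error and pair 3 did not. The limma difference was 1.08 ± 0.91 (SE) without the block and ± 0.50 with it, with an adjusted p of 0.447. edgeR with the block gave 1.19 and an adjusted p of 0.157. Leaving out pair 3 gave 1.90 and 0.0173, the only setting of those tried in which Aldh1a1 passed.

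Reads of Aldh1a1 can be confused with its neighbour Aldh1a7, a close copy that lies next to it on the opposite strand of chromosome 19. The coding sequences of both are 1503 bases long and differ at 126 positions, which makes them 91.6% identical in GENCODE on GRCm38. The libraries were sequenced with reads of 75 bases. Of 4934 different stretches of that length in the Aldh1a1 transcripts, 50 (1.01%) occur in Aldh1a7 as well. The stretches below show both cases, 5′ to 3′ on the coding strand, with the differing bases in capitals. The first, coding bases 226 to 300 of either gene, is identical in both, at chr19:20617934-20618008 on the plus strand (exon 3 of Aldh1a1) and chr19:20722290-20722364 on the minus strand (exon 3 of Aldh1a7). The next are coding bases 317 to 391, in exon 4 of each, at chr19:20619973-20620047 and chr19:20719237-20719311, and differ at 17 positions.
Aldh1a1 and Aldh1a7, identical: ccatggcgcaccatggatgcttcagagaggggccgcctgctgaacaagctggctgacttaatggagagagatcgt
Aldh1a1, different: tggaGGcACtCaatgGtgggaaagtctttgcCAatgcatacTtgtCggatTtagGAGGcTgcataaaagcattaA
Aldh1a7, different: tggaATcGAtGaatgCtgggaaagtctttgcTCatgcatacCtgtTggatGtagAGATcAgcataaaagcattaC
Aldh1a7 itself had between 3 and 18 reads in a library, fewer than Aldh1a1 in each, and its differences of 0.57, -0.76 and -0.85 on the log2 scale did not follow those of Aldh1a1 in pair 2.

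Of the 18 other genes of the aldehyde dehydrogenase family, limma and edgeR with the block called 0, and 2 had an unadjusted p under 0.05 in each, close to the 11.2% and 11.7% of all genes. Aldh5a1, which breaks down the product of the transmitter GABA, had differences of -0.82, -0.27 and -0.47 and an adjusted p of 0.255 by edgeR. Aldh2, the mitochondrial enzyme of ethanol metabolism, was the more abundant, with between 5631 and 14363 reads in a library and differences of 0.17, -0.33 and -0.08. Of 19 retinoid pathway genes in the table, edgeR with the block called 1, Stra6, the receptor that takes up retinol, and limma with the block called 0. Over all genes, edgeR called 0.372% lower in MICs. Stra6 was read 23, 4 and 82 times in MICs against 48, 17 and 217 times in non-MICs, fewer in MICs in every pair, with a log2 difference of -1.38 and an adjusted p of 0.0320. Rarg, a retinoic acid receptor, had differences of -0.67, -0.71 and -0.23 and did not pass, with 0.168.

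Procr (chr2:155751117-155755471, plus strand) encodes the endothelial protein C receptor and marks a basal stem cell subset in the mammary gland. Its scaled counts were 2080, 4380 and 1642 in MICs 1 to 3 and 1090, 8214 and 1335 in non-MICs 1 to 3. The MIC library was the higher in pairs 1 and 3 and the lower in pair 2, and both libraries of number 2 were above all the others. Each of the 3 pairs differed beyond counting error, with folds of 1.91 (95% counting interval 1.77 to 2.06), 0.533 (0.513 to 0.554) and 1.23 (1.16 to 1.31). The limma difference was 0.11 ± 0.76 (SE, n = 3 and 3) and the adjusted p was 1. With the block the 95% interval ran from 0.725-fold to 1.60-fold, with an adjusted p of 0.894. edgeR without the block gave -0.42, of the opposite sign. The value also turned on which pair was left out. With the block and without pair 2 it was 0.62 in limma, with an adjusted p of 0.406, and 0.67 in edgeR, with 0.128. Without pair 1 it was -0.30 in limma and -0.33 in edgeR.

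The pathway of Procr held 1 gene that passed. Of 8 protein C pathway genes in the table, edgeR with the block called F3, the tissue factor that starts coagulation, and limma with the block called 0. Over all 22310 genes, edgeR called 232 higher. F3 was read 10218, 1930 and 4882 times in MICs against 5905, 1284 and 3156 times in non-MICs, and rose by 0.69 on the log2 scale, with an adjusted p of 0.0489. Proc, which encodes protein C, had at most 9 reads in a library. Thbd, thrombomodulin, had differences of 0.93, -0.22 and 0.45 and did not pass. Procr is also expressed by endothelial cells, of whose 12 markers 10 were in the table. Their summed scaled count was 2148, 2800 and 378 in MICs 1 to 3 and 1394, 3774 and 335 in non-MICs 1 to 3, highest in number 2 as Procr was. A single marker gave most of the sum in non-MIC 2, with 3229 reads, and 3 of the 10 had a mean of 50 reads or more. Pecam1, the gene of the endothelial marker CD31, by which the study's lineage gate removed cells, had between 5 and 18 reads in a library. The part of such cells in the level of Procr was not tested.

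Lgr4 (chr2:109917647-110014257, plus strand), Lgr5 (chr10:115450311-115587780, minus strand) and Lgr6 (chr1:134983301-135105276, minus strand) encode the receptors of R-spondins, secreted proteins that raise Wnt signalling by keeping Wnt receptors on the cell surface. Lgr4 is widely expressed in epithelia, and Lgr5 and Lgr6 label stem cell subsets. Lgr4 had scaled counts of 1363, 1878 and 1056 in MICs 1 to 3 and 1066, 1423 and 1395 in non-MICs 1 to 3. It was the most even of the 10, with a 1.36-fold range between the means of the numbers, with MICs above non-MICs in pairs 1 and 2 and below them in pair 3. Its limma difference was 0.12 ± 0.27 (SE, n = 3 and 3), and the 95% interval with the block ran from 0.814-fold to 1.45-fold, with an adjusted p of 0.832. Without pair 2 the difference was -0.024 in limma and 0.029 in edgeR, both with the block.

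Lgr6 had scaled counts of 1234, 1216 and 3209 in MICs 1 to 3 and 1333, 1938 and 3286 in non-MICs 1 to 3. Number 3 was highest in both populations, and MICs were the lower in each pair, beyond counting error in pair 2 alone. The folds were 0.926 (95% counting interval 0.854 to 1.00), 0.627 (0.582 to 0.677) and 0.977 (0.938 to 1.02). The limma difference was -0.27 ± 0.47 (SE), and with the block the interval ran from 0.635-fold to 1.08-fold with an adjusted p of 0.564. Without pair 2 the difference was -0.073 in limma and -0.017 in edgeR, both with the block.

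Lgr5 was read 3, 0 and 20 times in MICs 1 to 3 and 2, 0 and 20 times in non-MICs 1 to 3. The same number of reads in both libraries of number 3, and none in number 2, left no difference to detect at this depth. A count of 0 allows up to 3 reads in a library, and no fold is given for pair 2. The limma interval with the block ran from 0.487-fold to 2.46-fold.

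Of 28 genes of the R-spondin pathway, 25 were in the table. edgeR with the block called 2 higher and 0 lower, Gpc3, a cell surface proteoglycan, and Smoc2, a matrix protein, both of which were named after their values were seen because they had few reads. Over all 22310 genes, edgeR called 232 higher. Gpc3 was read 134, 31 and 17 times in MICs against 17, 12 and 4 times in non-MICs, and Smoc2 48, 11 and 39 times against 5, 9 and 5. limma with the block called 0. Among the Wnt target and feedback genes, Nkd2 had differences of -0.78, -0.29 and -0.46 and Axin2 -0.75, -0.15 and -0.98. Znrf3, the ubiquitin ligase that the R-spondin receptors inhibit, had -0.93, -0.12 and -0.19. All 3 had negative values in each pair and none passed, with adjusted p-values of 0.196, 0.228 and 0.396 by edgeR with the block. They were named for their small p-values in limma with the block, so they do not stand for the list. In all 3 pairs, 5 of the 25 genes were lower in MICs and 4 higher, beside 18.8% and 12.5% of all genes.

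Tspan8 (chr10:115816832-115849893, plus strand) encodes a tetraspanin, a membrane organiser that has been used for a quiescent subset of mammary stem cells. It was read 29, 10 and 210 times in MICs 1 to 3 and 44, 1 and 214 times in non-MICs 1 to 3. Number 3 was highest in both populations and number 2 lowest. The only pair beyond counting error was pair 2, on 10 reads against 1, with a fold of 10.5 (95% counting interval 1.50 to 457). The limma difference was 0.64 ± 1.62 (SE, n = 3 and 3), the interval with the block ran from 0.689-fold to 3.53-fold, and the adjusted p was 0.669. The sign of the mean difference turned in edgeR without the block, at -0.048, and, with the block, without pair 2, at -0.32 in limma and -0.22 in edgeR. Tspan8 and Lgr5 lie 229 kb apart on chromosome 10 with 1 annotated gene, Gm8960, between them. Both were highest in number 3 and lowest in number 2, as were Prom1 and Kit on chromosome 5. The part of their position in this was not tested. Over the 6 libraries Lgr5 correlated at 0.916 with Tspan8 and at 0.973 with Prom1.

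The sequence before the RefSeq start of Tspan8 is shown beside that of Kit because both followed the replicate number. It covers the 237 bases outside annotated exons, at chr10:115817034-115817270 on the plus strand of GRCm38.p6, and lies downstream of the outermost start in GENCODE. Capitals mark the only match to the 6 motifs, the SOX and TCF core on the other strand. The same window holds it in 15.8% of promoters.
Tspan8: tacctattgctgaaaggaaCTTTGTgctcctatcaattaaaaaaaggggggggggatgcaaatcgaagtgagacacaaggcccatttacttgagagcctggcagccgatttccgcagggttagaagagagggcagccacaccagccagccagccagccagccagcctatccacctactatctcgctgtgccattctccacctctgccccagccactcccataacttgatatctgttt
Kit and Tspan8 shared none of the 6 motifs in these windows. With 52.3% G and C, the Tspan8 stretch was near the median of 51.9% for that window, unlike that of Kit.

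Prom1 (chr5:43993620-44102032, minus strand) encodes CD133, a protein of membrane protrusions. Its scaled counts were 592, 101 and 2092 in MICs 1 to 3 and 653, 52.8 and 2535 in non-MICs 1 to 3. Each number held its own level, number 3 the highest and number 2 the lowest. The folds were 0.907 (95% counting interval 0.807 to 1.02), 1.92 (1.34 to 2.76) and 0.825 (0.786 to 0.866), so that pairs 2 and 3 differed beyond counting error in opposite directions. The limma difference was 0.17 ± 1.51 (SE, n = 3 and 3), with the block the interval ran from 0.784-fold to 1.61-fold, and the adjusted p was 0.814. edgeR without the block gave -0.16. With the block and without pair 2 the difference was -0.21 in limma and -0.16 in edgeR. Of the stretches of read length in its transcripts, 3.65% occur in transcripts of other genes too, against 0% for Kit, Procr, Lgr4, Lgr6, Tspan8 and Cd44.

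Of 24 other tetraspanins and prominins, edgeR with the block called 2 higher and 0 lower, and limma with the block called 0. Over all 22310 genes, edgeR called 232 higher. Tspan18 was read 398, 14 and 73 times in MICs against 141, 4 and 48 times in non-MICs, more often in MICs in each pair, with a log2 difference of 1.22 and an adjusted p of 0.0247. Tspan6 had differences of 1.38, 1.17 and -0.20, higher in MICs in 2 of 3 pairs, with an adjusted p of 0.0120. Prom2, the relative of Prom1, had differences of -0.76, -0.82 and -0.39 and did not pass, with 0.134.

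Cd44 (chr2:102811141-102901665, minus strand) encodes the main receptor for hyaluronan. Its scaled counts were 42073, 77160 and 74302 in MICs 1 to 3 and 46386, 68587 and 67484 in non-MICs 1 to 3. Number 1 was lowest in both populations, and the MIC library was the higher in pairs 2 and 3. With between 39018 and 109881 reads in a library, every pair differed beyond counting error, yet by little, with folds of 0.907 (95% counting interval 0.895 to 0.920), 1.13 (1.11 to 1.14) and 1.10 (1.09 to 1.11). The limma difference was 0.056 ± 0.31 (SE, n = 3 and 3), and with the block the 95% interval ran from 0.751-fold to 1.44-fold, with an adjusted p of 0.936. After quantile normalization the difference was -0.064, and without pair 2 it was -0.00097 in limma and 0.054 in edgeR, both with the block. Counts per gene do not tell the spliced forms of Cd44 apart.

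Of 20 genes of the hyaluronan and CD44 pathway, 19 were in the table, and limma and edgeR with the block called 0. An unadjusted p under 0.05 was found for 4 in each, beside 11.2% of all genes in limma and 11.7% in edgeR. Has2, the enzyme that makes hyaluronan, had differences of 0.52, 0.77 and 0.10 and an adjusted p of 0.332 by edgeR. Vcan, the hyaluronan-binding proteoglycan versican, had 1.57, 0.22 and 0.17 with 0.0732, and Esrp2, a splicing factor that keeps the variant exons of Cd44, had -1.01, -0.65 and -0.18 with 0.0878.

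Surface markers of mammary stem and progenitor cells outside the 10 were compared in the same fits. Of 18, edgeR with the block called 2 higher and 0 lower in MICs, and limma with the block called 0. Over all 22310 genes, edgeR called 232 higher. An unadjusted p under 0.05 was found for 6 of the 18 in each, beside 11.7% of all genes in edgeR and 11.2% in limma. In all 3 pairs, 6 were higher in MICs and 2 lower, beside 12.5% and 18.8% of all genes. Itgb3 (CD61), an integrin of luminal progenitors in some strains, had scaled counts of 3103, 480 and 3250 in MICs against 1600, 381 and 1917 in non-MICs, with a log2 difference of 0.70 and an adjusted p of 0.0344. Cd200, a glycoprotein that dampens immune cells, had 334, 33.4 and 5880 in MICs against 139, 13.7 and 5282 in non-MICs, with 0.79 and 0.0386. Both were lowest in number 2, as Kit, Prom1 and Tspan8 were. Of 14 hormone-sensing luminal genes, edgeR and limma with the block called 0, and 2 had an unadjusted p under 0.05 in each, beside 11.7% and 11.2% of all genes.

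Markers of stromal cells were also read. Of 12 fibroblast markers, 11 were in the table, and edgeR with the block called 2 higher in MICs, Col1a2 and, named after its values were seen, Dcn. Their summed scaled count was between 683 and 2174 in MICs against between 607 and 1174 in non-MICs. Of 8 pericyte markers, 7 were in the table and 2 were called higher, Mcam and, named after its values were seen, Cspg4, with the sums given beside the basal cell genes. Over all 22310 genes, 232 were called higher. CD90 is carried by fibroblasts too. Of 15 immune markers, 10 were in the table and 0 were called, with sums between 215 and 2099 in MICs against between 238 and 1297 in non-MICs. Dcn, the fibroblast proteoglycan decorin, had at most 81 reads in a library, and Ptprc, the pan-leukocyte marker CD45, at most 14. Their part in the differences of the 10 markers was not tested.

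By a fixed rule, the 3 genes with the highest correlation with each marker over the 6 libraries were listed, among 12161 named genes with a mean of 50 reads or more. With so many genes and 6 libraries in 3 pairs, correlations of this size describe the shape of a profile and no more. For Kit they were Saa3, an acute phase protein (0.999), Xist, the RNA of the inactive X chromosome (0.999), and Anpep, an aminopeptidase (0.998). Xist had scaled counts of 4423, 47.8 and 12080 in MICs 1 to 3 and 15522, 38.0 and 18982 in non-MICs 1 to 3, so that number 2 had almost none in either population. For Prom1 they were Sel1l3, Enpp3 and Slc43a3, and for Tspan8 Il1rl2, Ell2 and Trim12c. For Procr they were Tmem43, Efemp2 and Tmem175. For Aldh1a3 they were Lrrc14, Zdhhc8 and Fbrs, for Lgr4 Prkaa1, Rab26os and Ttc5, for Lgr6 Galnt12, Lars and Tango6, and for Cd44 Ripk2, Gm13415 and Sgk1. Each of these 24 correlated at 0.975 or more.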

How the data were processed

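The authors made stranded mRNA libraries, sequenced reads of 75 bases and deposited 1 table of signal for 3 MIC and 3 non-MIC libraries, in which gene counts were scaled to a common library total. The aligner is STAR with HTSeq in the submitters' processing notes and Bowtie2 with samtools in the study's methods, on GRCm38 (mm10), and versions and the use of strand in counting are not given in the sources used here. The number of other columns of values was 0. Dividing a library's values by its smallest step gave whole reads (within 0.01) for at least 99.99% of values, so counts were recovered. Intervals on ratios of reads cover counting error only, at the 95% level. Symbols for 22161 of 22310 identifiers, lengths and positions came from GENCODE vM21, and promoters, found for 8 of the 10 markers, from RefSeq (GRCm38.p6).

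limma 3.58.1 in R 4.3.3 (lmFit, eBayes with trend) was run on log2(value + 1) over 22310 genes with all 6 libraries, with Benjamini-Hochberg adjustment and a threshold of 0.05. A fold on this scale understates the change of rare genes. The recovered reads were tested with edgeR 4.0.16, by its quasi-likelihood test, and with DESeq2 1.42.0. Departures from the group means correlated between same-numbered libraries at 0.573, 0.668 and 0.746, and between others at -0.536 to -0.194, so the numbers, which both populations share in the labels, were treated as pairs, and fits with the number as a block stand beside those without. The procedures were tested on simulated data, where the fits with the block recovered most changes and limma without it made no call. The alternatives were a pseudocount of 0.1 or of 10, leaving out genes under the median value, quantile normalization, TMM rescaling, no trend and leaving out libraries or pairs.

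The markers and all gene lists were chosen with earlier results of these data known. Named from each list were up to 4 genes with the smallest limma p with the block among those with a mean of 50 reads or more. Aldh1a7, Aldh2, Cspg4, Dcn, Gpc3, Kitl, Krt14, Pecam1, Proc, Ptprc, Smoc2 and Xist are named in the text under another rule or after their values were seen.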

Additional observations from a re-analysis of the deposited data

How the results depend on the processing

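The number of markers called was 0 under 10 of the 11 other settings that kept every library, limma with the replicate block among them, and 1 (Kit) in edgeR with the block. Of all genes, the settings without the block called 0, or 1 in DESeq2. Their 0 for the markers therefore says little about the markers. Leaving out libraries or pairs gave between 0 and 1 calls. The edgeR fits with the block and without 1 pair, added after the data were seen, called Kit without pair 2, Aldh1a1 without pair 3 and no marker without pair 1. With the replicate block, limma gave every marker the same mean difference as without it, and a smaller error. The sign turned without the block for Procr (-0.42 in edgeR, -0.40 in DESeq2), Tspan8 (-0.048 and -0.018) and Prom1 (-0.16 and -0.13), and for Cd44 after quantile normalization (-0.064). The cause was not tested. Leaving out 1 library or pair moved the log2 difference between -0.43 and 1.03 for Procr, -0.10 and 0.39 for Lgr4, -0.81 and 1.16 for Lgr5, -0.74 and 0.071 for Lgr6, -1.15 and 1.95 for Tspan8, 0.22 and 1.90 for Aldh1a1, -0.69 and -0.17 for Aldh1a3, -2.68 and 0.86 for Kit, -1.36 and 1.42 for Prom1 and -0.13 and 0.34 for Cd44. The ends for Kit come from unbalanced fits without the block that lack 1 library of number 2. Both ends for Procr, Lgr5, Lgr6, Tspan8, Aldh1a3, Prom1 and Cd44 also come from fits without the block that lack 1 library, as do the lower ends for Lgr4 and Aldh1a1. In such a fit the numbers are not balanced between the populations, so differences between numbers enter the value. Aldh1a1 and Aldh1a3 kept their sign in all fits that left out libraries or pairs. The filter at the median value left 7 markers, without Aldh1a1, Lgr5 and Tspan8. Over all genes, limma called 0 without the block and 29 with it, and edgeR 0 and 315, and limma with the block called 0 without pair 3. With fewer than 50 reads on average, Lgr5 and Aldh1a1 are limited by depth.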
